A study of Arabidopsis thaliana with 9 samples.

Results

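The aliphatic glucosinolate pathway was followed here through 10 genes of Arabidopsis thaliana, taken by locus identifier from the 33602 gene models counted in each library. The 10 were the regulators MYB28 (AT5G61420) and MYB29 (AT5G07690), the chain elongation genes BCAT4 (AT3G19710), MAM1 (AT5G23010) and MAM3 (AT5G23020), the core synthesis genes CYP79F1 (AT1G16410), CYP79F2 (AT1G16400), CYP83A1 (AT4G13770) and UGT74C1 (AT2G31790), and the side chain gene FMO GS-OX1 (AT1G65860). All 10 were found in every file. The 9 RNA-seq libraries came from the aerial parts of 21-day-old Col-0 plants grown on soil at 21 °C and 65% humidity in short days of 8 h light and 16 h dark, with no treatment, and 3 libraries each were labelled WT, cuc2-3 and CUC2gm-4. The labels name the genotypes but describe neither allele, and nothing in them says whether the 3 libraries of a genotype came from separate plants or pools, so p-values measure the spread between these libraries, which may be technical in part.

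Glucosinolates are sulfur-rich defence compounds of the cabbage order that yield toxic isothiocyanates and nitriles when tissue is damaged and myrosinase enzymes reach them. The aliphatic kind is made from methionine. BCAT4 removes the amino group, the MAM synthases MAM1 and MAM3 add carbon units to the side chain, CYP79F1 and CYP79F2 turn the elongated amino acid into an aldoxime, CYP83A1 oxidises the aldoxime, UGT74C1 adds glucose, and FMO GS-OX1 oxygenates the sulfur of the side chain. MYB28 and MYB29 are R2R3-type MYB transcription factors that switch these genes on in leaves, and CUC2, the gene named in the genotypes, is a NAC transcription factor of organ boundaries and leaf margins.

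The 10 genes lie on all 5 chromosomes, and 2 pairs of them are tandem copies on the plus strand. In the TAIR10.1 reference, CYP79F2 (chr1:5605044-5607498) ends 1183 bp before CYP79F1 (chr1:5608682-5612064), and their coding sequences are 91.9% identical over 1605 aligned bases. MAM1 (chr5:7703041-7706973) ends 11144 bp before MAM3 (chr5:7718118-7721866), and theirs are 83.8% identical over 1512 bases. MYB28 (chr5:24689069-24691187, minus strand) and MYB29 (chr5:2446669-2448584, plus strand) are 76.1% identical over 987 bases and lie far apart on the same chromosome. CYP83A1 is at chr4:7990429-7992429 and BCAT4 at chr3:6846969-6849582, both on the minus strand, UGT74C1 is at chr2:13518199-13520364 on the plus strand, and FMO GS-OX1 is at chr1:24498954-24502776 on the minus strand.

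The 250 bases before the annotated start of 3 of the genes are printed 5′ to 3′ from the RefSeq TAIR10.1 sequence. The CYP79F pair is shown because these neighbouring copies were read at very different levels, and CYP83A1 because it had the highest level per length. Capitals mark the G-box CACGTG, the kind of site bound by MYC-type factors, and the AC element ACCNAC, the kind bound by R2R3-type MYB factors, each searched on both strands. No match of one motif overlapped a match of the other in these windows.
CYP79F1, chr1:5608432-5608681, strand plus: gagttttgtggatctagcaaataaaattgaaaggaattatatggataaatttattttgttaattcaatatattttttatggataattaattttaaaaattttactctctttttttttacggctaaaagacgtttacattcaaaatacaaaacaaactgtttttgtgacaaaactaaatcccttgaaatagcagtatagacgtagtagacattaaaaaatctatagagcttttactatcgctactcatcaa
CYP79F2, chr1:5604794-5605043, strand plus: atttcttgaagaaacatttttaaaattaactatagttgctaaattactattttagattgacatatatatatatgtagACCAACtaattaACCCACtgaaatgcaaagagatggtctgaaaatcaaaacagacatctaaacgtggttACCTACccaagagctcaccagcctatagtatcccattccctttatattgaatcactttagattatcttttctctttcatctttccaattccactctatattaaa
CYP83A1, chr4:7992430-7992679, strand minus: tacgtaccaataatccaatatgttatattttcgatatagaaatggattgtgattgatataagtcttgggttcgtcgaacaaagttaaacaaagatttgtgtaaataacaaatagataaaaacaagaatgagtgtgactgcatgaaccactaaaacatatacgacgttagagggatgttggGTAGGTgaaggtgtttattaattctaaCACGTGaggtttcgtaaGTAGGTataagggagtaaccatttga

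The windows of the CYP79F copies carried different letters at these motifs. CYP79F2, the weakly read copy, had 3 AC elements in its window, while CYP79F1, the strongly read copy, had none. Over the windows of 9 of the 10 genes the G-box was found in 1, that of CYP83A1, against 6.49% of the windows of 27443 genes. The AC element was found in 4 of the 9, those of MYB28, BCAT4, CYP79F2 and CYP83A1, against 23.6% of all windows. A match describes these letters in this stretch and does not show a bound site.

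Total counts ran from 17361433 to 27734410 per library, so that 3 counts correspond to 0.108 to 0.173 CPM (read counts scaled to a common library total), and intervals and such limits cover counting error only. The CUC2 level was 37.2 ± 7.03 CPM where the label read CUC2gm-4, beside 2.05 ± 1.21 CPM for WT and 1.03 ± 0.556 for cuc2-3 (SD, n = 3 each). The series text calls both mutants knockouts, and the CUC2 level goes against that for CUC2gm-4, a label kept here only as a name of libraries. For cuc2-3 the CUC2 counts of 38, 11 and 23 overlapped the 13, 53 and 55 of WT, and edgeR did not call the difference. The leaf genes RBCS1A, LHCB1.3 and LHCB3 summed to between 24105 and 33544 normalised CPM in 6 libraries, to 40105 and 42586 in cuc2-3 2 and 1, and to 59140 in WT 1. The root hair genes EXPA7 and COBL9 had 0 to 3 counts per library, the endodermis gene CASP1 7 to 23, and PYK10, a beta-glucosidase listed as a root marker, 2023 to 5141. The flower genes AP3, PI and AG together had 4 to 18.

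Per length of gene model, the pathway fell into 8 genes that were read abundantly and 2 that were barely read. Averaged over the 9 libraries, CYP83A1 stood at 209 ± 65.2 and MAM1 at 206 ± 66.4 normalised CPM per kb (SD over libraries), followed by BCAT4 at 167 ± 58.1 and CYP79F1 at 124 ± 43.3. UGT74C1 stood at 55.9 ± 14.4, FMO GS-OX1 at 37.8 ± 14.4, MYB28 at 33.2 ± 10.1 and MYB29 at 24.8 ± 7.82. CYP79F2, which in vivo serves long side chains, stood at 1.61 ± 0.604, and MAM3, the synthase able to build the longest side chains, at 0.169 ± 0.101. Apart from CYP79F2 and MAM3, the enzymes were thus read at a higher mean level per kb than both regulators, and CYP79F2 and MAM3 were the 2 members whose ranges stood clear of the gene above them in the order.

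**Figure D1:**
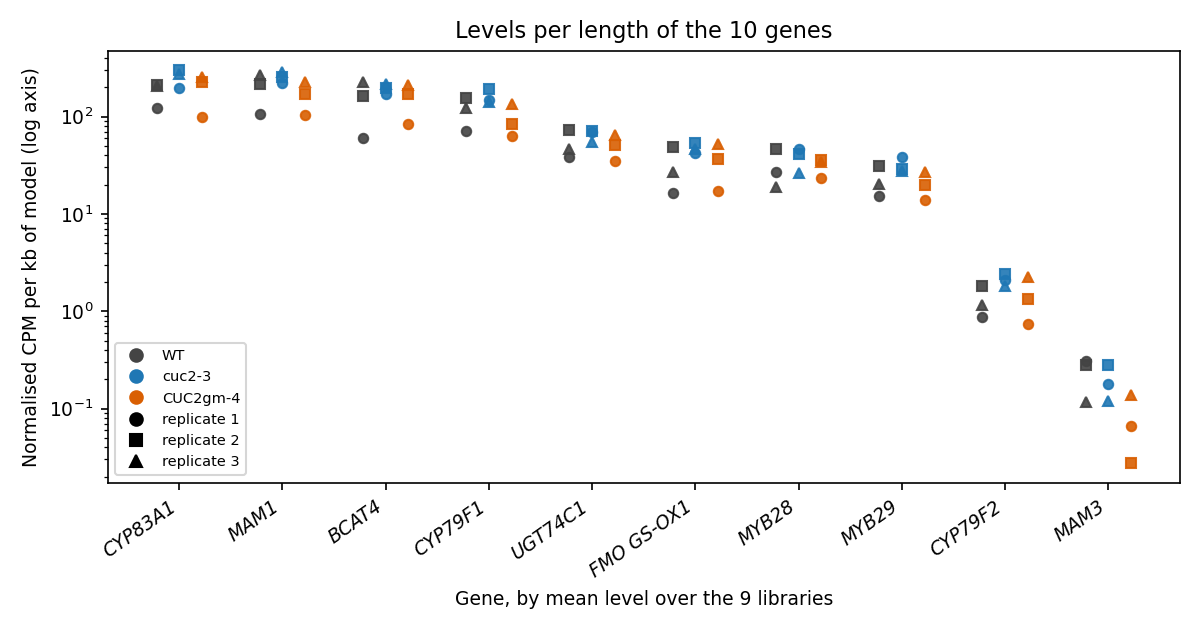
Normalised CPM per kb of gene model (log axis) for the 10 genes, ordered by their mean over the 9 libraries; each point is 1 library, colour gives the genotype and symbol the replicate number. CYP79F2 and MAM3 lie below the other 8 genes in every library.

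Neighbours in this order often could not be separated. CYP83A1 exceeded MAM1 in 4 of 9 libraries, FMO GS-OX1 exceeded MYB28 in 6 and MYB28 exceeded MYB29 in 7. MAM1 exceeded BCAT4, CYP79F1 exceeded UGT74C1 and UGT74C1 exceeded FMO GS-OX1 in all 9 libraries, although the ranges over libraries overlapped for each of these pairs, and BCAT4 exceeded CYP79F1 in 8. The order was therefore steadier within a library than between libraries.

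The tandem copies differed most within a library. CYP79F2 had 26 to 103 counts per library where CYP79F1 had 2236 to 7903, and per kb CYP79F1 was read 60.2 to 105 times as strongly. MAM3 had 9, 9 and 5 counts in the WT libraries, against 7, 9 and 6 for cuc2-3 and 3, 1 and 6 for CUC2gm-4, where MAM1 had 2933 to 13875. MAM3 thus had at most 9 counts in any library. Reads that align equally well in several places were removed by the authors, and a stretch of 50 bases was taken as a guide to this: 2.74% of the 50-base stretches of CYP79F2 transcripts and 2.83% of those of CYP79F1 occur elsewhere in the genome, and 0 of the 1780 of MAM3 and 0 of the 1680 of MAM1 do. In FMO GS-OX1, which has similar paralogues, 0.237% do.

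Libraries of a genotype lay further apart for the pathway than for the median gene in WT and CUC2gm-4, and no further apart in cuc2-3. The median gap between the highest and lowest library of a genotype, on the log2 scale with 0.5 CPM added, was 1.05 for the 10 genes in WT against 0.505 for all 18292 genes tested, 1.12 against 0.413 in CUC2gm-4, and 0.400 against 0.398 in cuc2-3. In bulk tissue, fewer cells of a type and less RNA per cell cannot be told apart. WT 1 and CUC2gm-4 1 were the low libraries: 8 of the 10 genes were lowest in WT 1 among the WT libraries and 9 of 10 were lowest in CUC2gm-4 1 among its own. The highest libraries were WT 2 for 7 genes and CUC2gm-4 3 for 9.

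The summed level of the 10 genes shows the same libraries standing apart. WT 1, 2 and 3 summed to 769, 1583 and 1556 normalised CPM, the cuc2-3 libraries to 1563, 1919 and 1791, and the CUC2gm-4 libraries to 731, 1315 and 1668. The means were 1302 ± 463, 1757 ± 180 and 1238 ± 473 (SD, n = 3). The lowest cuc2-3 library lay below the second WT library, so the groups overlapped. WT 1 also had the highest leaf gene sum, 59140 normalised CPM, and the lowest scaling factor, 0.873 against 0.955 to 1.06 in the others, whereas CUC2gm-4 1 had a leaf gene sum of 33084 and a factor of 1.02; the part of these in the pathway's level was not tested.

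Clock genes also differed between libraries of a genotype. The mean log2 level of the morning genes CCA1 and LHY minus that of the evening genes TOC1, GI, LUX and ELF4 was -4.99, -4.41 and -2.56 for WT 1, 2 and 3, -3.04, -5.24 and -1.37 for cuc2-3, then -4.94, -4.52 and -0.74 for CUC2gm-4. The lowest 3 values belonged to WT 1 and CUC2gm-4 1, where the pathway was lowest, and to cuc2-3 2, where its summed level was highest of all. The replicate 3 libraries had the highest clock value in each genotype, and the pathway's summed level was highest in replicate 3 in CUC2gm-4 alone. Of the 10 genes, 2, 2 and 9 were highest in replicate 3 of WT, cuc2-3 and CUC2gm-4, and BCAT4 and MAM1 were so in all 3 genotypes. The clock's part in the pathway's level was not tested.

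The regulators come first by role. MYB28, described as the main activator of the pathway, was at 38.1, 65.9 and 26.7 normalised CPM in WT 1, 2 and 3, at 66.2, 59.5 and 37.8 in cuc2-3 and at 33.7, 50.5 and 48.5 in CUC2gm-4. MYB29, its accessory paralogue, was at 24.6, 49.0 and 32.7 in WT, at 60.7, 46.3 and 44.4 in cuc2-3 and at 22.3, 32.0 and 43.5 in CUC2gm-4. For MYB29 every cuc2-3 library lay above every CUC2gm-4 library, while WT overlapped both; for MYB28 all groups overlapped.

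Chain elongation comes next, and BCAT4 had the widest range over the 9 libraries among the abundant members, 3.78 times from lowest to highest. BCAT4 was at 82.6, 223 and 312 normalised CPM in WT, at 234, 268 and 294 in cuc2-3 and at 115, 233 and 286 in CUC2gm-4. MAM1 was at 183, 370 and 466 in WT, at 386, 440 and 492 in cuc2-3 and at 177, 297 and 393 in CUC2gm-4. Both were low in WT 1 and CUC2gm-4 1, and in replicate 3 of all 3 genotypes both were at their highest. MAM3 was at 0.561, 0.501 and 0.211 in WT, at 0.321, 0.507 and 0.213 in cuc2-3 and at 0.12, 0.0498 and 0.245 in CUC2gm-4.

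In the core, CYP79F1 was at 139, 305 and 244 normalised CPM in WT, at 293, 383 and 280 in cuc2-3 and at 125, 165 and 267 in CUC2gm-4. CYP79F2 was at 1.62, 3.40 and 2.2 in WT, at 3.94, 4.51 and 3.44 in cuc2-3 and at 1.40, 2.54 and 4.21 in CUC2gm-4. All cuc2-3 libraries lay above all CUC2gm-4 libraries for CYP79F1, and above all WT libraries for CYP79F2, the latter by a margin of 3.44 against 3.40. CYP83A1 was at 211, 369 and 355 in WT, at 338, 517 and 474 in cuc2-3 and at 173, 393 and 438 in CUC2gm-4. UGT74C1 was at 61.9, 119 and 75.4 in WT, at 113, 115 and 90.1 in cuc2-3 and at 56.4, 83.9 and 105 in CUC2gm-4. Groups overlapped for CYP83A1 and UGT74C1 in every comparison.

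FMO GS-OX1, at the side chain step, was at 26.0, 76.9 and 42.5 normalised CPM in WT, at 67.6, 84.2 and 74.6 in cuc2-3 and at 27.3, 58.3 and 83.2 in CUC2gm-4. Its groups overlapped throughout. Strand use in the authors' counting is unknown here, so reads of genes on the opposite strand cannot be told apart where transcripts overlap. BCAT4 shares 307 bp with AT3G19700, which had 1 to 7 counts per library, and UGT74C1 shares 40 bp with AT2G31800, which had 403 to 1158, and 265 bp with AT2G08470, a long non-coding RNA gene that is not used here.

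**Figure D2:**
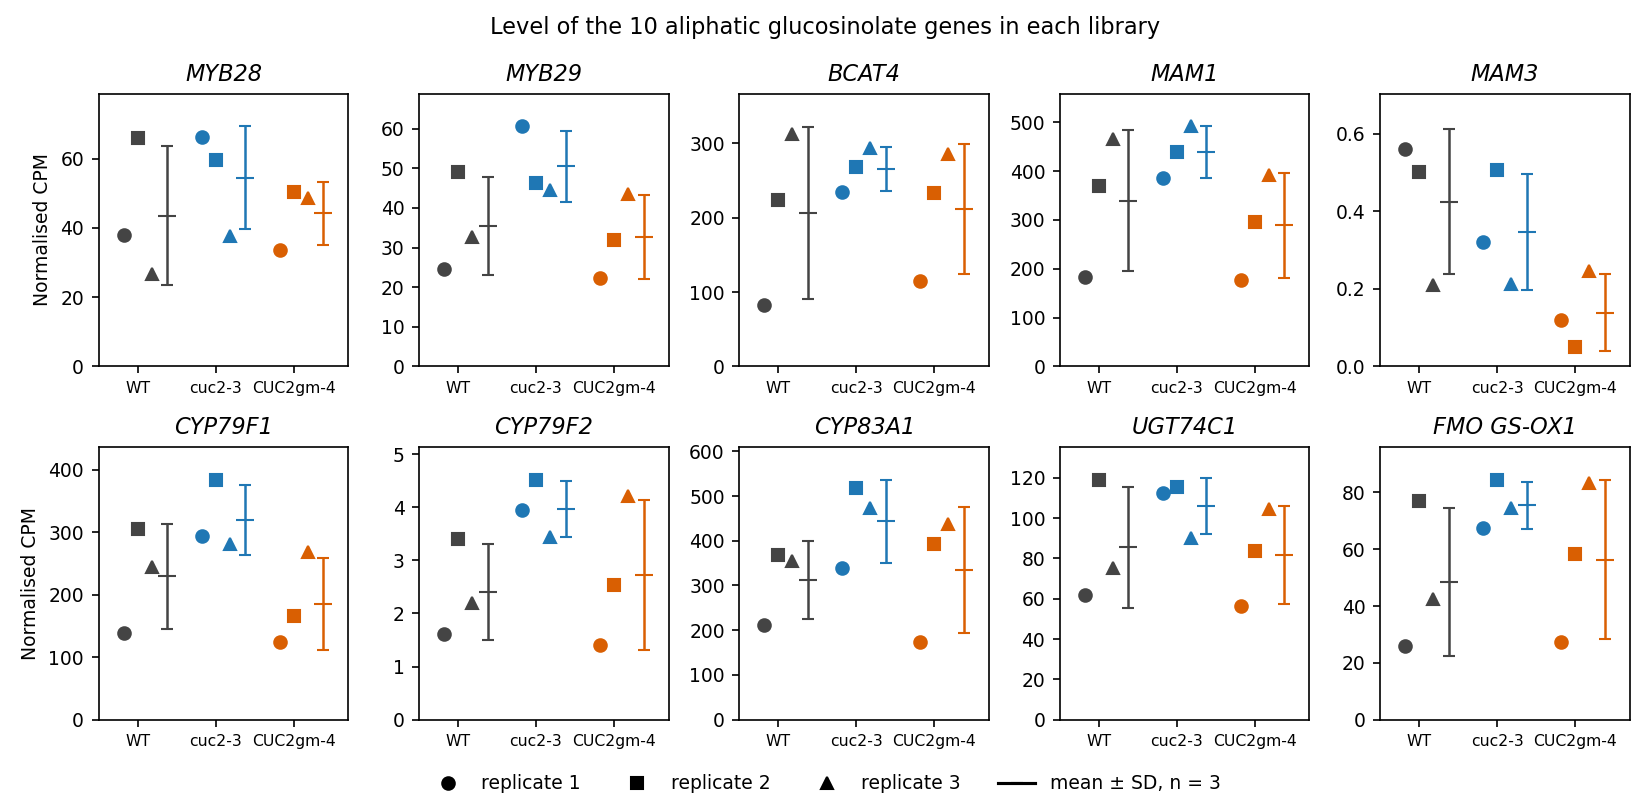
Normalised CPM (linear axes from 0, a scale for each gene) of the 10 genes in each library; symbols give the replicate number and bars the mean ± SD (n = 3). Replicate 1 of WT and of CUC2gm-4 (circles) is low for most genes. By SD the cuc2-3 libraries lie closer together than both other groups for most genes, but not for MYB28, MAM3 and CYP83A1. Their sums over the 10 genes, which are not drawn, run from 1563 to 1919 normalised CPM.

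None of the 10 genes passed the test in cuc2-3 against WT, and 9 of the 10 were higher in cuc2-3 by their fitted value. The fit was edgeR's quasi-likelihood model over all 18292 genes tested with Benjamini-Hochberg adjustment. It called 4 genes, 0.0219% of those tested, and 0 members. At an unadjusted p under 0.05 it held 357 genes (1.95%) and 0 members, and DESeq2 called 14 genes (0.0765%) and 0 members. CYP79F2 had the largest fitted difference, a log2 fold change of 0.72 (SE 0.40), and was the 1 member whose cuc2-3 libraries all lay above WT, where 2.88% of all genes did so and 2.65% lay wholly below. FMO GS-OX1 followed at 0.64 (SE 0.41), MYB29 at 0.51 (SE 0.29), CYP83A1 at 0.51 (SE 0.34) and CYP79F1 at 0.48 (SE 0.32). MAM1, BCAT4, MYB28 and UGT74C1 had log2 fold changes of 0.37, 0.36, 0.32 and 0.31, and MAM3 of -0.29 (SE 0.61). The median of the 10 was 0.42, beside -0.0076 for all genes tested, and every member had the same adjusted p of 0.9999.

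The size of this difference depended on replicate 1. Between same-numbered libraries, 9, 7 and 9 of the 10 genes were higher in cuc2-3, with median log2 differences of 1.07, 0.19 and 0.34 for numbers 1, 2 and 3. Of all genes tested, 49.6%, 51.2% and 49.6% were higher. MAM3 counted as higher for numbers 2 and 3 on log2 differences of 0.0084 and 0.0031, with 9 against 9 and 6 against 5 counts. Without replicate 1 of every genotype, a setting added after the low levels in that replicate had been seen, the median of the 10 log2 fold changes was 0.12, and it was 0.21 without just WT 1 and 0.69 without just WT 2. With same-numbered libraries as blocks, 6 of the 10 genes had an unadjusted p under 0.05, against 682 of all genes (3.73%). They were CYP83A1, FMO GS-OX1, MAM1, CYP79F1, BCAT4 and CYP79F2, in order of p, and the edgeR adjusted p of each over all genes was 0.998.

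In CUC2gm-4 against WT none of the 10 genes passed the test, and 5 were higher and 5 lower by their fitted value. Here edgeR called 3 genes (0.0164%) and 0 members, and with the block 34 genes (0.186%) and 0 members, while DESeq2 called 81 genes (0.443%) and 0 members. At an unadjusted p under 0.05, edgeR held 1999 genes (10.9%) and 0 members with the block, and 1188 genes (6.49%) and 1 member without it. That member was MAM3, with a log2 fold change of -1.50 (SE 0.67) that rests on 23 counts in all WT libraries and 10 in all CUC2gm-4 libraries. Its unadjusted edgeR p was 0.0488 (adjusted p = 0.764), and 0.0681 with the block. The other 9 lay between -0.30 for CYP79F1 and 0.22 for FMO GS-OX1, with standard errors of 0.27 to 0.43. The median of the 10 was -0.022, beside -0.0025 for all genes tested, and its sign did not hold: it was 0.002 with the block and 0.21 without WT 2.

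The same-numbered libraries did not share a direction in this comparison. For numbers 1 and 2, 2 of the 10 genes were higher in CUC2gm-4, with median log2 differences of -0.15 and -0.39, and for number 3, 8 of the 10 were, with a median of 0.35. No member had groups apart, where 5.88% of all genes lay wholly higher and 5.73% wholly lower.

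All 10 genes were lower in CUC2gm-4 than in cuc2-3 by their fitted value, and none passed the test. Here edgeR called 3 genes (0.0164%) and 0 members, with the block 7 genes (0.0383%) and 0 members, and DESeq2 called 25 genes (0.137%) and 0 members. CYP79F1, which makes the aldoximes of short and long side chains, differed by -0.78 on the log2 scale (SE 0.32), with an unadjusted edgeR p of 0.0345 and an adjusted p of 0.9999. MYB29 had -0.63 (SE 0.29), and it and CYP79F1 were the 2 members whose CUC2gm-4 libraries all lay below cuc2-3, where 5.19% of all genes did so and 4.83% lay wholly above. MAM1 had -0.60 (SE 0.34), CYP79F2 -0.54 (SE 0.40) and MAM3 -1.20 (SE 0.68), the last on 10 against 22 counts. The remaining 5, MYB28, BCAT4, UGT74C1, CYP83A1 and FMO GS-OX1, lay between -0.30 and -0.42. The median of the 10 was -0.48, beside 0.00041 for all genes tested.

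With the replicate number as a block, 4 members had an unadjusted p under 0.05 in this comparison, against 1352 of all genes (7.39%). These were MAM1, CYP79F1, CYP83A1 and MYB29, in order of p, and their lowest edgeR adjusted p over all genes was 0.459, for MAM1. Without the block it was 1 member and 682 genes (3.73%). Again replicate 1 carried most of the difference. For numbers 1, 2 and 3, 0, 0 and 5 of the 10 genes were higher in CUC2gm-4, with median log2 differences of -1.07, -0.53 and 0.017. Of all genes tested, 49.9%, 46.9% and 51.2% were higher. MAM3 counted as higher for number 3 with 6 counts in each library. The median of the 10 log2 fold changes was -0.23 without replicate 1 of every genotype, -0.20 without just CUC2gm-4 1 and -0.85 without just CUC2gm-4 3. The leaf genes RBCS1A, LHCB1.3 and LHCB3 had -0.48, -0.39 and -0.45 in this comparison and PYK10 -0.52, none of them called by edgeR. For LHCB1.3, LHCB3 and PYK10 every CUC2gm-4 library lay below every cuc2-3 library. The part of these leaf genes and PYK10 in the pathway's values was not tested. The comparisons share libraries, so their values are given side by side and not as support for each other.

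**Figure D3:**
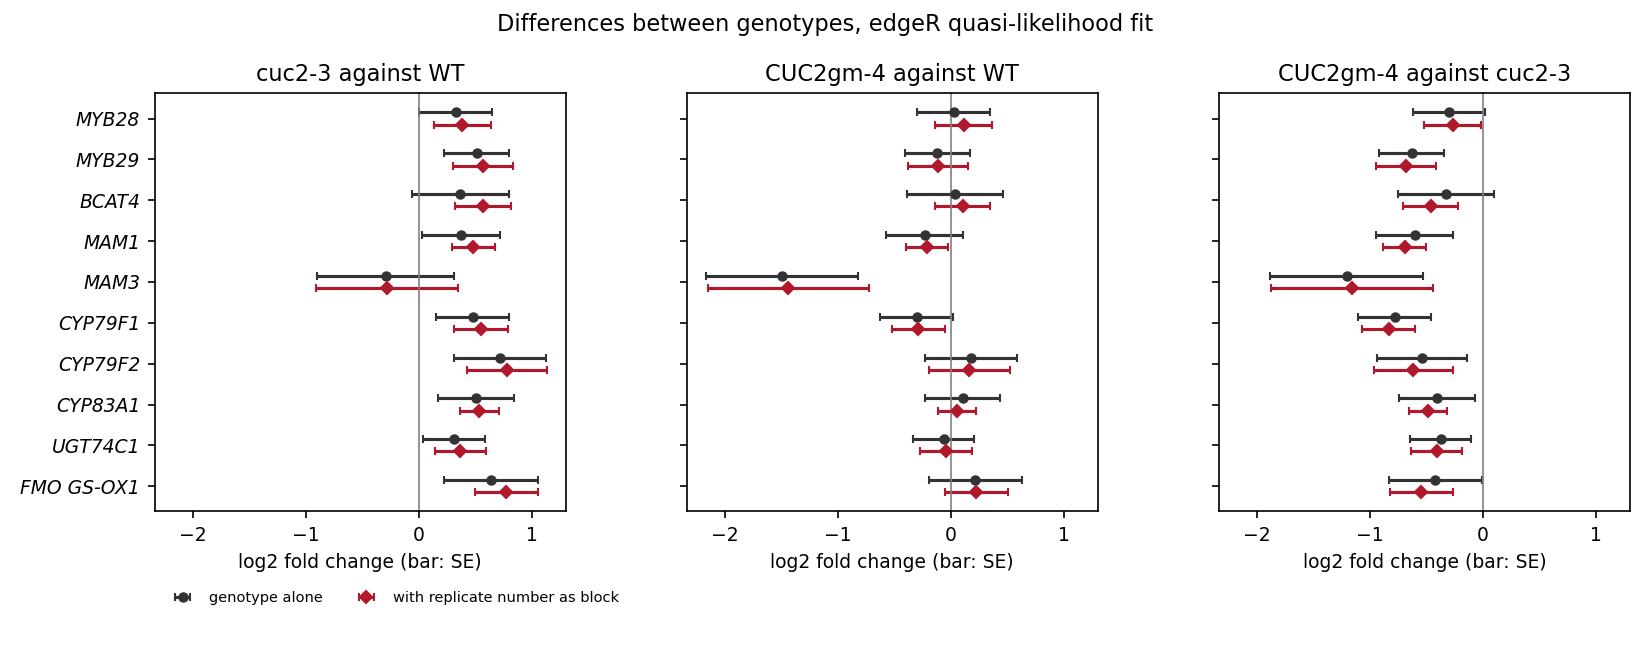
Log2 fold change (bars, SE) of the 10 genes in the 3 comparisons, from the fit with genotype alone (grey circles) and with the replicate number as a block (red diamonds). Values lie mostly right of 0 for cuc2-3 against WT (median 0.42), around 0 for CUC2gm-4 against WT (median -0.022) and left of 0 for CUC2gm-4 against cuc2-3 (median -0.48); none passed the test.

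The balance between paralogues was compared as a share of the counts per kb within each library, which does not depend on the scaling of libraries. MYB28 made up 63.4%, 60.0% and 47.7% of MYB28 and MYB29 in WT 1, 2 and 3, 54.9%, 58.9% and 48.7% for the cuc2-3 libraries, then 62.8%, 63.8% and 55.5% for CUC2gm-4. The 95% Wilson intervals of the WT libraries were 60.4 to 66.2, 57.9 to 62.1 and 45.1 to 50.3%. The lowest MYB28 share of each genotype was thus in replicate 3. Between genotypes the means of 57.0 ± 8.24% in WT, 54.2 ± 5.14% in cuc2-3 and 60.7 ± 4.54% in CUC2gm-4 (SD, n = 3) differed with 2-sided exact permutation p-values of 0.6, 0.6 and 0.2 for cuc2-3 against WT, CUC2gm-4 against WT and CUC2gm-4 against cuc2-3. The smallest p that 3 against 3 allows is 0.1. Between same-numbered libraries the MYB28 share was higher in CUC2gm-4 than in cuc2-3 by 7.84, 4.89 and 6.76 points, the same sign in 3 of 3 pairs, and the paired 2-sided exact permutation p was 0.25, the smallest that 3 pairs allow. The CYP79F1 and MAM1 shares of their pairs had the same paired p in cuc2-3 against WT, higher in cuc2-3 in 0 and 3 of 3 pairs. The signs of both MYB28 share differences from WT depend on a WT library. The cuc2-3 difference of -2.83 percentage points became 0.329 without WT 1, and the CUC2gm-4 difference of 3.67 became -0.994 without WT 3.

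CYP79F1 made up 98.9 ± 0.143% of CYP79F1 and CYP79F2 in WT, 98.7 ± 0.0881% in cuc2-3 and 98.5 ± 0.254% in CUC2gm-4 (SD, n = 3). Every cuc2-3 library had a smaller share than every WT library. The means differed by -0.195 percentage points, with the smallest possible 2-sided exact permutation p of 0.1. The closest libraries were WT 1 at 98.79% and cuc2-3 2 at 98.77%, with 26 and 80 CYP79F2 counts. Their Wilson intervals, 98.23 to 99.17% and 98.48 to 99.01%, overlapped, so the gap between these libraries lay within counting error. CUC2gm-4 differed from WT by -0.363 points (exact p = 0.2) and from cuc2-3 by -0.168 (exact p = 0.4). MAM1 made up 99.84 ± 0.127%, 99.92 ± 0.0346% and 99.95 ± 0.027% of MAM1 and MAM3 in WT, cuc2-3 and CUC2gm-4, with exact p-values of 0.4, 0.3 and 0.4 in the 3 comparisons. Adjusted over the 9 tests of shares, all p-values lay between 0.514 and 0.6.

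Most of the 10 genes followed each other over the 9 libraries. Pearson's r of a gene's log2 level with the mean standardised level of the other 9 was 0.968 for UGT74C1, 0.967 for CYP79F2, 0.951 for CYP79F1, 0.946 for FMO GS-OX1, 0.932 for MYB29, 0.86 for CYP83A1 and 0.819 for MAM1. Values were lower for BCAT4 (0.734), MYB28 (0.597) and MAM3 (0.208). The counts of CYP79F2 thus followed the pathway at their low level, while MAM3, with 1 to 9 counts, could hardly show a pattern. Whether some CYP79F2 counts were misplaced reads of CYP79F1, 91.9% identical in coding sequence, was not tested. The values of r describe 9 libraries that share the low WT 1 and CUC2gm-4 1, and genes read in the same libraries share their scaling.

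Among the 18282 other genes tested, 4 of the 5 most like the mean of the 10 were further genes of the same pathway. IPMI SSU3 led (r = 0.964 over 9 libraries), followed by BAT5 (0.959), IPMI SSU2 (0.956), AK3 (0.956) and FMO GS-OX3 (0.951). IPMI SSU2 and IPMI SSU3 are small subunits of the isomerase of chain elongation, BAT5 carries its 2-oxo acids across the plastid envelope, FMO GS-OX3 is a paralogue of FMO GS-OX1, and AK3 is annotated as an aspartate kinase. Of the 30 most alike genes 7 belonged to the list of 18 other aliphatic genes, and the median r of all genes was -0.017.

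IPMI SSU3 shows the shared shape: it was at 46.4, 113 and 88.5 normalised CPM in WT, at 98.3, 111 and 95.6 in cuc2-3 and at 36.3, 74.1 and 119 in CUC2gm-4. BAT5 was at 24.8, 78.5 and 55.7 in WT, at 56.3, 79.9 and 66.2 in cuc2-3 and at 24.4, 44.2 and 71.1 in CUC2gm-4. As for the summed level of the 10 genes, WT 1 and CUC2gm-4 1 were the lowest libraries of both.

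The other aliphatic genes, 17 of 18 of which were tested, were not called in any comparison. AOP3, a side chain gene, had 0 to 4 counts per library and was not tested. In cuc2-3 against WT 15 were higher and 2 lower by their fitted value, with a median log2 fold change of 0.30. In CUC2gm-4 against WT 6 were higher and 11 lower (median -0.16), and in CUC2gm-4 against cuc2-3 1 was higher and 16 were lower (median -0.41). In the last comparison 5 of the 17 lay wholly below cuc2-3, against 5.19% of all genes. GSL-OH, which hydroxylates a butenyl side chain, was one of them, at 90.3, 117 and 139 against 227, 188 and 173 normalised CPM, and its fitted difference was -0.76 on the log2 scale (SE 0.24, edgeR adjusted p = 0.9999). IPMI LSU1, the large subunit of the isomerase, had -0.43 (SE 0.16) and FMO GS-OX2 -0.63 (SE 0.23), each with groups apart. The genes shared by all glucosinolate classes, GGP1, SUR1 and UGT74B1, had log2 fold changes of 0.17, 0.43 and 0.27 in cuc2-3 against WT, and 0 of the 3 were called in any comparison.

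**Figure D4:**
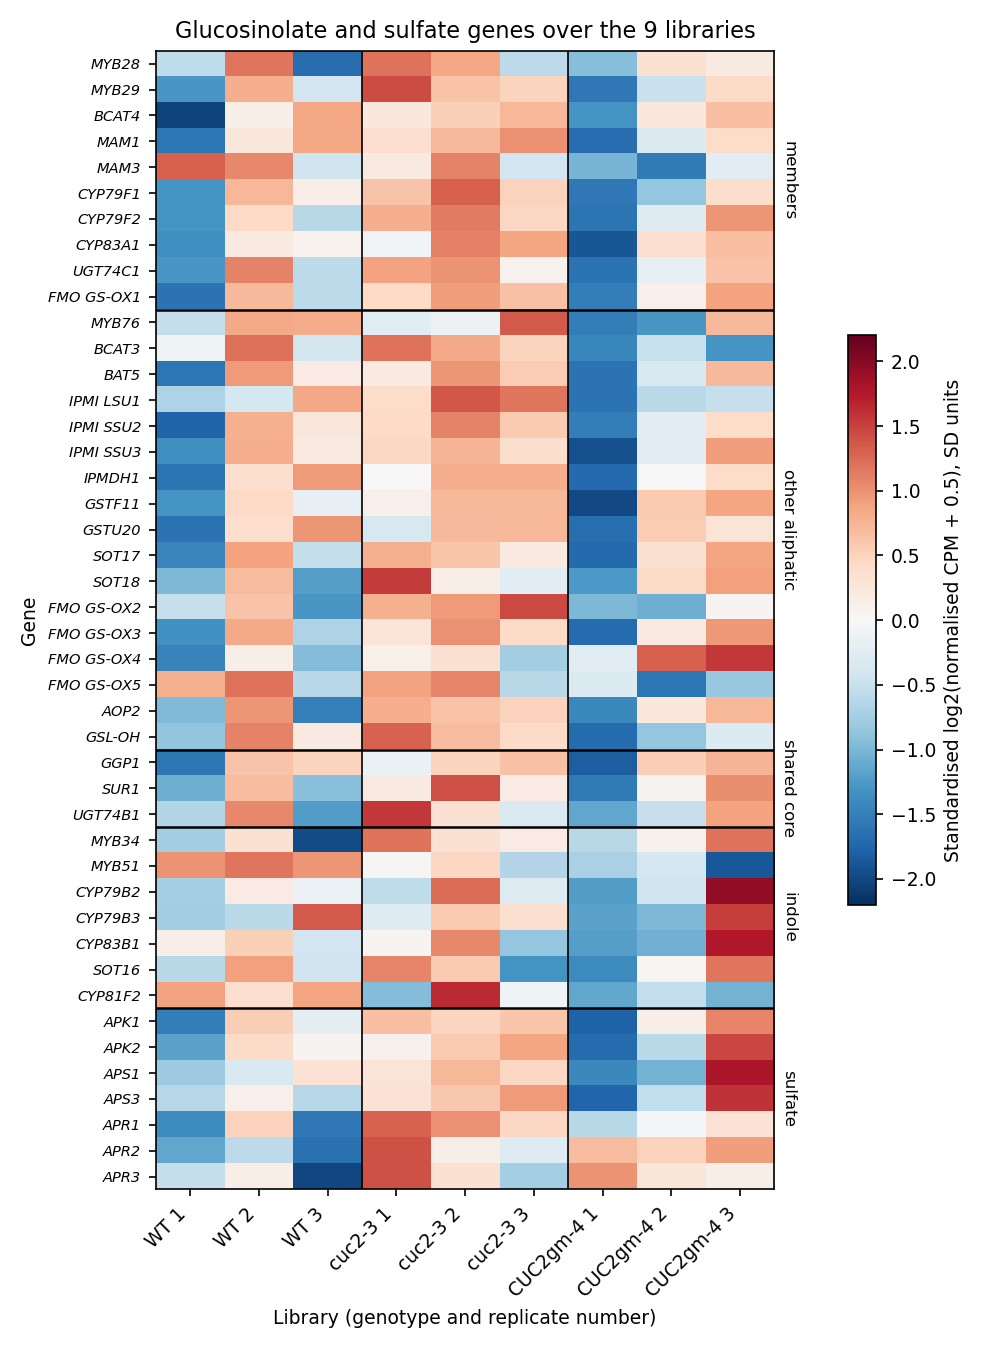
Standardised log2(normalised CPM + 0.5) of the 10 genes, the other aliphatic genes, the shared core, indole and sulfate genes (rows) in the 9 libraries (columns); red is above and blue below a gene's own mean, in SD units. The columns of WT 1 and CUC2gm-4 1 are blue for most aliphatic genes, and the indole and sulfate rows follow them in part.

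The indole branch, which starts from tryptophan, resembled the aliphatic genes less. Of its 8 listed genes 7 were tested, MYB122 having 0 to 5 counts per library, and 0 were called in any comparison. Pearson's r with the mean of the 10 members ran from -0.02 for MYB51 to 0.708 for SOT16, with a median of 0.59, where the other aliphatic genes had a median of 0.834. MYB51, an activator of indole genes, stood -1.28 on the log2 scale (SE 0.32) from WT in CUC2gm-4, with groups apart (adjusted p = 0.469 by edgeR). CYP81F2, which modifies the indole ring, had -1.02 (SE 0.40, adjusted p = 0.755), and MYB34 had 0.52 (SE 0.26, adjusted p = 0.9999) in cuc2-3 against WT.

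Genes of sulfate assimilation, which supply the reduced sulfur and the sulfate donor, were higher than WT in cuc2-3 and in CUC2gm-4 by their fitted value, 7 of 7 in each comparison, and edgeR called none. Between same-numbered libraries 7, 6 and 7 of the 7 were higher in cuc2-3 for numbers 1, 2 and 3, but 3, 2 and 7 of the 7 in CUC2gm-4, where replicate 3 thus carried the common sign. The median log2 fold change was 0.44 in cuc2-3 against WT and 0.17 in CUC2gm-4 against WT, and both comparisons use the same WT libraries. APR2, which reduces activated sulfate, was at 41.4, 51.9 and 33.6 normalised CPM in WT, at 116, 69.5 and 58.7 in cuc2-3 and at 87.2, 80.8 and 95.8 in CUC2gm-4. No WT library reached a library of cuc2-3 or of CUC2gm-4. Its log2 fold change in CUC2gm-4 against WT was 1.06 (SE 0.25, adjusted p = 0.461 by edgeR, 0.103 with the block and 0.0336 by DESeq2). APR1 had 0.79 (SE 0.27) in cuc2-3 against WT, and APR3 0.61 (SE 0.32) in CUC2gm-4 against WT. APK1, which makes the sulfate donor of the last core step, had the highest r of the 7 with the mean of the 10 members, 0.939. The median of the 7 was 0.777, and APR2 and APR3 had 0.215 and 0.085.

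Among 7 genes listed as upstream regulators, 7 were higher in cuc2-3 and 6 in CUC2gm-4 than in WT by their fitted value, and 0 were called. Both comparisons use the same WT libraries, and 48.4% and 49.6% of all genes tested were higher. For numbers 1, 2 and 3, 5, 6 and 6 of the 7 were higher in cuc2-3, and 5, 5 and 7 in CUC2gm-4. SDI1, a protein induced by low sulfur that holds back MYB28, was at 2.06, 1.73 and 0.93 normalised CPM in WT, at 7.61, 4.11 and 2.73 in cuc2-3 and at 3.73, 3.53 and 7.11 in CUC2gm-4. For SDI1 the cuc2-3 and the CUC2gm-4 libraries all lay above the same WT libraries. Its log2 fold change was 1.63 (SE 0.46, adjusted p = 0.622 by edgeR) in CUC2gm-4 against WT. SLIM1, a regulator of the sulfur response, had 0.35 (SE 0.16) and MYC4, a bHLH partner of the MYB factors, 0.40 (SE 0.19) in the same comparison. Of 8 genes of glucosinolate breakdown 6 were tested and 0 called; in CUC2gm-4 against WT all 6 were lower by their fitted value, with a median of -0.36 and -0.46 (SE 0.21) for the myrosinase TGG1, and for numbers 1, 2 and 3, 0, 0 and 2 of the 6 were higher. TGG1 was at 4023, 2942 and 2294 normalised CPM in WT 1, 2 and 3, highest in the library with the highest leaf gene sum. The leaf genes RBCS1A, LHCB1.3 and LHCB3 had -0.61, -0.47 and -0.39 in the same comparison and PYK10 -0.51, the last 2 with groups apart and none called by edgeR, and their part in the values of the breakdown genes was not tested. The transporters GTR1 and GTR2 had -0.14 and 0.15 in the same comparison, with 0 of 2 called.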

How the data were processed

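Deposited values are whole-number read counts per gene model, 1 file per library. Stranded single-end messenger RNA libraries sized at 230 bp were read on an Ion Torrent Proton, per the labels' protocols. Counting was done with sam2pkm, per the file headers, and the authors removed reads aligning equally well in several places, 1.92 to 2.61% of mapped reads. Per the submitters' processing notes the genome build was TAIR10. Not given in the sources used here are the aligner, the strand setting and any trimming. The files also hold a gene model length, which was used, as deposited by the authors, only for levels per kb. The files carry no coordinates, so positions and sequences come by identifier from the RefSeq TAIR10.1 reference; the upstream window of 1 member is not reported here.

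Counts were tested with edgeR 4.0.16 in R 4.3.3 (TMM scaling, quasi-likelihood test, all 9 libraries, genotype as factor, Benjamini-Hochberg adjustment, threshold 0.05), on genes that reached 1 CPM in 3 or more libraries; CUC2 and the 10 members were kept whatever their counts. The members would have been kept apart from MAM3, which is under that minimum. Normalised CPM are CPM on TMM-scaled totals. Shares were tested with exact permutation tests in scipy 1.17.1, and a paired exact test was added after the values were seen. Alternatives were DESeq2 1.42.0, library totals, no count minimum, the replicate number as a block, and leaving out libraries. The computations were tested on simulated data with a common spread for all genes. Per comparison, edgeR recovered 44 or 45 of 100 changes of 2-fold and 100 of 100 changes of 4-fold. It made 3 to 11 false calls in fits of 18125 to 18144 genes. Changes were simulated only in genes above a minimum mean level, which CYP79F2 and MAM3 do not reach. The spread was not widened for the 10 genes, so the recovery need not hold for them. Total counts ran from 17361433 to 27734410, and within genotypes the counts differed by 34.9 to 109 as chi-square per gene, so none was a repeat of another.

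Replicate numbers come from the labels. Same-numbered libraries deviated together from their genotype means in all 9 pairs (r of 0.198 to 0.586, against -0.477 to 0.188 in the 18 other pairs), so the numbers were taken to pair the libraries. Deviations cancel within a genotype for each gene, so r in the other pairs is tied to that in same-numbered pairs. The block lowered the biological coefficient of variation from 0.237 to 0.177. Fold changes, SE and edgeR p-values are from the fit without the block unless it is named. The members and all gene lists were chosen with earlier results of these data known. Named genes are the 10 members, CUC2, any listed gene called, up to 3 per list with the smallest unadjusted p, and the 5 genes most correlated with the members' mean; MYB122, AOP3, APK1, SOT16 and the further pathway genes were named outside that rule, after their values were seen.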

Additional observations from a re-analysis of the deposited data

How the results depend on the processing

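Of the 10 genes, 0 were called in any comparison under the 14 alternatives run, and the lowest adjusted p of any was 0.459. The median of the 10 log2 fold changes kept its sign in cuc2-3 against WT (0.12 to 0.69 when leaving out libraries) and in CUC2gm-4 against cuc2-3 (-0.85 to -0.20). In CUC2gm-4 against WT it ran from -0.30 to 0.21, and was 0.043 with library totals. The number of genes called depended on the setting. DESeq2 called 14, 81 and 25 genes in cuc2-3 against WT, CUC2gm-4 against WT and CUC2gm-4 against cuc2-3, where edgeR called 4, 3 and 3. With the replicate block edgeR called 34 in CUC2gm-4 against WT and 7 in CUC2gm-4 against cuc2-3, and with no count minimum 9 in CUC2gm-4 against WT. Leaving out libraries gave 1 to 4, 2 to 8 and 1 to 4 genes; the 1 in the first and last came without replicate 1 of every genotype, a setting chosen after seeing the data, and CUC2gm-4 against WT gave 5 without WT 3 and 8 without cuc2-3 3. The block, or pairing by replicate number, changed no other call of these fits; paired tests of the 9 shares cannot go below a p of 0.25.

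Signs of small differences turned. In CUC2gm-4 against WT, UGT74C1 was at 0.0024 with library totals and BCAT4 at -0.062 without replicate 1 of every genotype, where MYB28 was at 0.043 in CUC2gm-4 against cuc2-3. Leaving out libraries, singly or as replicate 1 of every genotype, gave for CUC2gm-4 against WT -0.24 to 0.45 for MYB28, -0.39 to 0.18 for MYB29, -0.35 to 0.46 for BCAT4, -0.54 to 0.055 for MAM1, -0.29 to 0.50 for CYP79F2, -0.14 to 0.41 for CYP83A1, -0.28 to 0.25 for UGT74C1 and -0.18 to 0.71 for FMO GS-OX1. In cuc2-3 against WT BCAT4 ran from -0.023 to 0.78. The MYB28 share difference ran from -7.49 to 0.329 points in cuc2-3 against WT and from -0.994 to 6.83 in CUC2gm-4 against WT. The cause was not tested.

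Depth limits MAM3, with 1 to 9 counts per library, and 3 libraries per genotype limit the exact tests of shares to a p of at least 0.1.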
